A study of Mus musculus with 6 samples.

Results

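The promoters of 45 mouse genes that encode SR proteins, hnRNP proteins and related splicing regulators were followed in GL261 cells held at 21%, 1% or <0.1% O2. A gene entered the list by its family name, and its peaks were those within 2000 bp of a start site of the gene in the GENCODE M21 annotation of mm10. The list holds 13 SR and Tra2 genes, 26 hnRNP genes and 6 others (*Sfpq*, *Nono*, *Pspc1*, *Ewsr1*, *Taf15* and *Rbmx*). A peak was present in all 6 libraries for 44 of the 45 genes. Each of these 44 genes is described by its strongest such peak, so 44 of the 12959 promoter peaks and of the 28432 consensus peaks present in all 6 libraries.

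GL261 is a mouse glioma cell line, and all groups were the same line stably carrying pEGFP-N1, a plasmid that expresses a green fluorescent protein. Cells were kept for 16 h in a hypoxia chamber at 1% or at <0.1% O2, or in normoxia at 21% O2, and were fixed with formaldehyde before lysis, so the data describe 1 line in culture. Accessibility was measured by ATACseq, in which a transposase cuts open DNA, with 2 libraries per condition and 6 in all. The labels do not say whether the 2 libraries of a condition came from separate cultures, so the spread between them, on which p-values rest, may be technical. In the test used below that spread is largely shared over all peaks, so a p-value does not give the precision of 1 peak.

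The deposited lists held 33006 to 43554 peaks per library, and the genome coverage recovered from them was 2.16 to 2.36 fragments in the normoxic and 2.93 to 3.35 in the hypoxic libraries. Positions are those of the peak in mm10, counted from 1, and each named peak holds the annotated start of its gene unless stated. Peak heights are given as scaled summit pileups, which are the fragments over the summit after each library was scaled to the same median over the peaks present in all 6. Scaling by genome coverage in place of the median would move every log2 change by 0.17 at 1% O2 and by -0.17 at <0.1% O2, so all changes below are relative to the median peak. Promoter peaks of the glial and glioma genes *Nes*, *Vim*, *Sox2*, *Gfap*, *Olig2* and *Cd44* were present in all 6 libraries, while *Ptprc*, *Aif1*, *Cd3e*, *Cdh5* and *Alb*, which mark other cell types, had none in any library and *Pecam1* had one in 5. Of the 6 glial and glioma promoters 1 was called lower at 1% O2 (*Vim*) and 2 at <0.1% O2 (*Gfap* and *Olig2*), against 7.29% and 19.5% of all promoter peaks. All 6 were below 0 at both levels, against 52.0% of promoter peaks. Their median log2 change was -0.46 and -0.56, against -0.07 and -0.19 over all promoter peaks. Of the 8 hypoxia-inducible genes listed, *Ndrg1* had no peak in any library. Among the other 7, *Ankrd37* and *Egln3* passed the test for a higher promoter peak at 1% O2 and *Pdk1* at <0.1% O2, with log2 changes of 0.68, 0.66 and 0.93. Of all promoter peaks 3.92% and 4.53% were higher. Of the 7, 1 was below 0 at 1% O2 and 2 at <0.1% O2. Ranked by fold, as described below, 2 and 3 of the 7 were lower and none was higher, where 16.5% and 26.5% of promoter peaks were lower.

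SR proteins carry RNA recognition motifs and a domain rich in arginine and serine, bind enhancer sequences in exons and recruit the spliceosome. hnRNP proteins coat nascent transcripts and often block the use of nearby splice sites, and the balance between both families sets many alternative splicing choices. Members of both families regulate their own and each other's messages through poison exons, and the paralogs *Ptbp1* and *Ptbp2* bind similar pyrimidine tracts and differ in the cells that express them, with *Ptbp2* taking over as neurons form.

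The promoters of these genes were wide, strong and rich in G and C. The median length was 1485 bp against 976 bp over all promoter peaks, and the median GC content was 63.6% against 59.5%. The mean pileup percentile rank, averaged over the 6 libraries, lay above the promoter median of 62.3 for 35 of the 44 genes, and 12 stood in the top decile of promoter peaks. *Hnrnpc*, whose protein binds uridine tracts, had the strongest peak at a mean rank of 99.0, and *Rbmx*, which encodes hnRNP G, the weakest at 32.2. The median summit lay upstream of the start site in 36 of the 44 genes, against 60.03% of promoter peaks. An annotated start site of another gene on the opposite strand lay inside the peak for 19 of the 44, among them *Cbx3* at *Hnrnpa2b1*, *Lrrc40* at *Srsf11*, *Rmi1* at *Hnrnpk* and *Enoph1* at *Hnrnpdl*, and such a peak cannot be assigned to 1 of the 2 genes.

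*Srsf12*, a tissue-restricted paralog of *Srsf10*, was the only listed gene without a peak in all libraries. It had a peak in replicate 1 at 1% O2 and in none of the other 5 libraries, and so has no height to compare. *Srsf11*, *Hnrnpf*, *Hnrnpl* and *Hnrnpll* each had a further peak present in all 6 libraries within the 2000 bp window. The strongest *Hnrnpll* peak lay upstream of the annotated start site and did not contain it, while the further peak did. Weaker peaks that came and went were found at *Hnrnpf* (both 21% and both 1% O2 libraries), at *Ptbp1* (both 21% O2 libraries and replicate 1 at <0.1% O2) and at *Nono* (replicate 1 at 1% O2). In replicate 2 at 1% O2 the same *Nono* stretch was part of the main peak, which was 2187 bp wide there and 1154 to 1593 bp in the other 5 libraries.

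RefSeq promoter windows of 250 bases before and 50 bases after the start were matched to 42 of the 44 genes, all but *Hnrnpll* and *Hnrnpul2*, each lying wholly inside the gene's peak. From these, the bases nearest to the start that fall in no exon of GENCODE basic or curated RefSeq transcripts are shown for 9 genes, to set promoters that fell at <0.1% O2 beside promoters of the same families that did not pass the test. The genes shown were chosen after their values were seen, and no bases are shown for *Ptbp2* and *Ptbp1*, since there the bases before the start are themselves annotated as exon. The sequences are from GRCm38.p6, run 5′ to 3′ on the strand of the gene, and capitals mark matches on either strand to GGGCGG (the GC box bound by Sp1), CCAAT (bound by NF-Y), CCGGAA (ETS), GCATGCGC (NRF1), ATGGCGGC (YY1) and TGACG, the core of the cAMP response element TGACGTCA, with which it overlaps. The first 4 promoters fell at <0.1% O2 and the last 5 did not pass the test.
Hnrnpa0, chr13:58128557-58128706, minus strand: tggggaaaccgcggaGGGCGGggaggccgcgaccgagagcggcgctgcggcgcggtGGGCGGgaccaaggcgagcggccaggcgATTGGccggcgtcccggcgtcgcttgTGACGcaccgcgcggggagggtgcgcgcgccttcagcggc
Hnrnpu, chr1:178337816-178337965, minus strand: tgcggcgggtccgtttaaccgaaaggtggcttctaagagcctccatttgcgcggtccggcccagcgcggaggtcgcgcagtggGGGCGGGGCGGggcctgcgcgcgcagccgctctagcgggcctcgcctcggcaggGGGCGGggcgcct
Tra2a, chr6:49264053-49264202, minus strand: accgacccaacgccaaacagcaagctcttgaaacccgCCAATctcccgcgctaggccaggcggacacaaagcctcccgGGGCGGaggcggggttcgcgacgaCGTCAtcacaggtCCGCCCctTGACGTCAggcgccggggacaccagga
Hnrnpa2b1, chr6:51469895-51470044, minus strand: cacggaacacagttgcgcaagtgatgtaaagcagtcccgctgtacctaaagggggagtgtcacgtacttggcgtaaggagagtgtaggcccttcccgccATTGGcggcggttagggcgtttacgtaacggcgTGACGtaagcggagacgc
Raly, chr2:154790946-154791095, plus strand: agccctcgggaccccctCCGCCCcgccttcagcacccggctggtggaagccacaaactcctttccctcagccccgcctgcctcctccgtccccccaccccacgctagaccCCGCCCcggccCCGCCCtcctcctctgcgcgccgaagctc
Srsf9, chr5:115327027-115327176, plus strand: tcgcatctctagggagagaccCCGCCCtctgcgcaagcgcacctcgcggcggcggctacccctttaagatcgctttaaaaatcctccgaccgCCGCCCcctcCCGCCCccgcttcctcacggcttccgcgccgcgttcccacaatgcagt
Hnrnpr, chr4:136310792-136310941, plus strand: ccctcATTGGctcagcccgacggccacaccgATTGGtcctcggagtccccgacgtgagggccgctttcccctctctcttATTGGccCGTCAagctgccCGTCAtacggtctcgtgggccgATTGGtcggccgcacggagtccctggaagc
Hnrnpc, chr14:52104029-52104178, minus strand: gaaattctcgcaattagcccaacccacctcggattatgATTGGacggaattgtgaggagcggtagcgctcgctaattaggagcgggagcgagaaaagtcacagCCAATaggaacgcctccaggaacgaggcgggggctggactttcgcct
Sfpq, chr4:127021151-127021300, plus strand: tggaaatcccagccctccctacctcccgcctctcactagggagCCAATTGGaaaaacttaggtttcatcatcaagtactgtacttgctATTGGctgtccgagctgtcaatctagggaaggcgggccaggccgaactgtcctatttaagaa

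In these stretches the GC content was 79.3% at *Hnrnpa0*, 75.3% at *Hnrnpu*, 67.3% at *Tra2a* and 58% at *Hnrnpa2b1*. Among the promoters that did not pass the test it was 74.7% at *Raly*, 66.7% at *Srsf9*, 66% at *Hnrnpr*, 55.3% at *Hnrnpc* and 50.7% at *Sfpq*. Over all 42 windows the median GC content was 69.8% in the 16 that fell and 62.8% in the 26 others. *Tra2a* was the only one of the 42 windows with the full TGACGTCA, which is found in 1.79% of all 32817 promoter windows and in 3.72% of the 9838 windows inside a peak present in all libraries. *Hnrnpr* held 4 CCAAT matches and *Sfpq* 3, and *Hnrnpu*, *Raly* and *Srsf9* held GC boxes and no CCAAT.

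Over whole windows, a GC box stood in 33 of the 42, against 71.2% of the windows inside a peak, and in 14 of the 16 promoters that fell at <0.1% O2 against 19 of the 26 others. CCAAT stood in 24 of the 42, against 39.7%, and in 7 of the 16 that fell against 17 of the 26 others. TGACG stood in 24 of the 42, against 35.4%, and in 10 of the 16 against 14 of the 26. ETS matches were in 15 of the 42, against 32.1%, and in 8 of the 16 against 7 of the 26. There was a match to ACGTG, the core of the hypoxia response element, in 17 of the 42, against 27.97%, split 7 of 16 and 10 of 26. TATAAA was in 5 of the 42, against 5.16%, NRF1 matches in 3, against 6.08%, YY1 matches in 3, against 5.94%, and the AP-1 element TGANTCA in 1, against 4.54%. These are matches of letters in a window and were not tested.

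At <0.1% O2, 16 of the 44 promoters had a lower summit pileup than at 21% O2 and none had a higher one, while on the deposited fold, treated further below, none was called. The changes were tested with limma over all 28432 peaks, which draws the spread of each peak towards a trend over all peaks. That trend carried 34.7 degrees of freedom against 3 of the peak itself. The SE and p of a gene thus rest mostly on shared spread and not on its own replicates. A call needed a Benjamini-Hochberg adjusted p under 0.05 and a log2 change of at least 0.6 in size. By the same rule 19.5% of all promoter peaks were lower and 4.53% higher. The 16 were *Srsf5*, *Srsf6*, *Srsf7*, *Srsf10*, *Srsf11* and *Tra2a* of the SR class and *Hnrnpa0*, *Hnrnpa2b1*, *Hnrnpab*, *Hnrnpdl*, *Hnrnpf*, *Hnrnpk*, *Pcbp1*, *Ptbp2*, *Syncrip* and *Hnrnpu* of the hnRNP class. With limma at an unadjusted p under 0.05 and no limit on size, 27 promoters were below 0 and 1, *Hnrnpl*, was above, against 42.3% and 16.1% of promoter peaks.

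The median log2 change over the 44 promoters was -0.40 at <0.1% O2, against -0.19 over all promoter peaks, and was -0.57 against -0.36 when scaled by genome coverage and 0.01 against -0.06 on the log2 fold. The change lay below 0 in 38 of 44, against 65.8% of promoter peaks. Scaled by genome coverage 21 of 44 were lower, against 30.2%. In 33 of 44 promoters both <0.1% O2 libraries lay below both normoxic libraries, which was so for 52.3% of promoter peaks, and in 3 they lay above, against 22.8%. Promoter peaks with a GC content of 65% or more were called lower more often than others, 30.6% against 16.3%, and 18 of the 44 promoters were in that range. When the trend with GC content was subtracted, 7 of 44 were lower, against 11.9% of all promoter peaks, and the median log2 change was -0.23 against -0.05. Of the 16, the 6 that kept the call were *Srsf11*, *Tra2a*, *Hnrnpa0*, *Hnrnpa2b1*, *Hnrnpdl* and *Ptbp2*, and *Rbmx* was added, while *Hnrnpl* was then called higher, with a log2 change of 0.65.

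**Figure D1:**
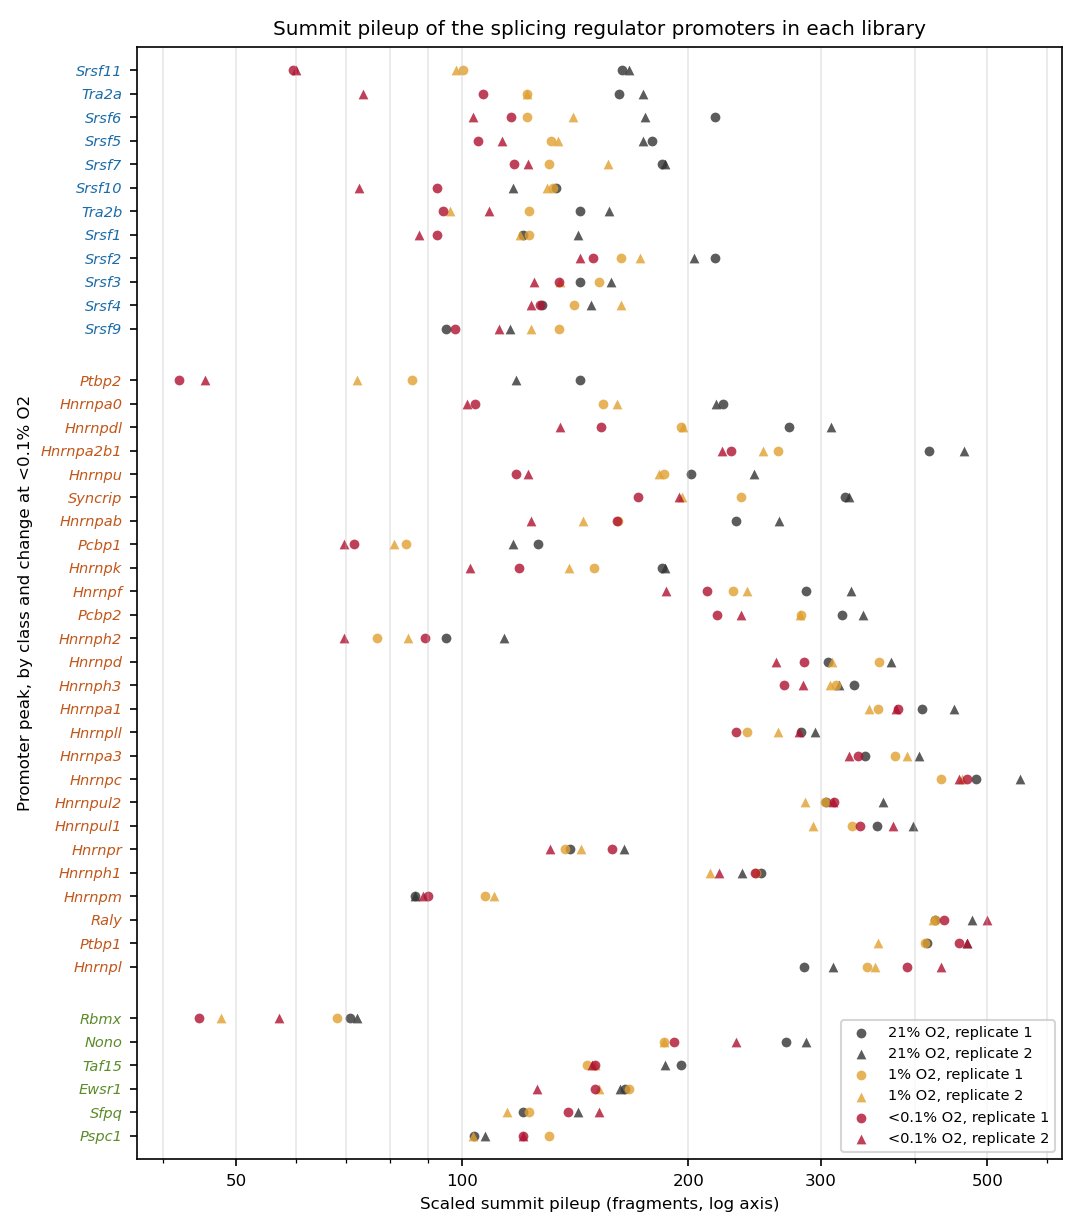
Scaled summit pileup (fragments, log axis) of the 44 promoter peaks in each of the 6 libraries, with SR and Tra2 genes above, hnRNP genes in the middle and the 6 others below, each class ordered by its change at <0.1% O2. Black marks are 21% O2, yellow 1% O2 and red <0.1% O2, and circles and triangles are replicates 1 and 2. In 33 of 44 rows both red marks lie left of both black marks on this scale of pileups.

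In the SR class, 6 of 12 promoters were lower at <0.1% O2 and the median log2 change was -0.58. The largest fall was at *Srsf11* (chr3:158036102-158036966), an SR-related gene that promotes the inclusion of microexons. Its scaled pileup was 163 and 167 in normoxia, 100.1 and 98.0 at 1% O2 and 59.4 and 60.1 at <0.1% O2. The 3 conditions did not overlap and fell in the order of oxygen. The log2 change was -1.46 ± 0.14 (limma SE) at <0.1% O2, with a limma adjusted p of 1.33e-10, and the change stayed below 0 under every alternative tried. The further *Srsf11* peak, at another annotated start site, also passed the test, with a log2 change of -0.93.

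*Tra2a* (chr6:49263264-49264366) encodes an activator that binds GAA-rich exonic enhancers. Its pileup was 162 and 174 in normoxia, 122 and 122 at 1% O2 and 107 and 73.9 at <0.1% O2. Both severe libraries lay below the others, although they differed from each other more than the normoxic ones did, and the log2 change was -0.92 ± 0.14 (limma adjusted p = 1.49e-06). Its paralog *Tra2b* missed the size limit at -0.57.

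Among the classical SR genes, *Srsf6* (chr2:162930698-162932492) had pileups of 217 and 175 in normoxia, 122 and 140 at 1% O2 and 116 and 103 at <0.1% O2. The hypoxic libraries all lay below the normoxic ones, and the log2 change at <0.1% O2 was -0.83 ± 0.13 (limma adjusted p = 1.65e-06), but 0.04 on the log2 fold. *Srsf5* (chr12:80945133-80946413) had 179 and 174, then 131 and 134, then 105 and 113. It fell step by step without overlap, to a log2 change of -0.70 ± 0.12 (limma adjusted p = 1.11e-05). *Srsf7* (chr17:80206363-80207827), a zinc knuckle SR protein of splicing and export, had 184 and 186, then 131 and 156, then 117 and 122.

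The *Srsf7* groups did not overlap either, and its log2 change was -0.63 ± 0.12 (limma adjusted p = 4.93e-05), but 0.0033 on the log2 fold. *Srsf10* (chr4:135855621-135856951), whose protein represses splicing when dephosphorylated, had 133 and 117, then 132 and 129.8, then 92.6 and 72.8. Only its severe libraries stood below normoxia, with a log2 change of -0.60 ± 0.14 (limma adjusted p = 0.000474). None of *Srsf5*, *Srsf6*, *Srsf7* and *Srsf10* kept the call after the GC trend was subtracted, *Srsf7* lost it without replicate 1 of <0.1% O2 and *Srsf10* without replicate 1 of 21% O2 or replicate 2 of <0.1% O2. Among peaks with a −log10 q of at least 10, *Srsf7* and *Srsf10* lost the call as well.

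*Srsf1* (chr11:88046660-88048552), which encodes the founding member of the family, passed the adjusted p but not the size limit. Its pileup was 121 and 143 in normoxia, 123 and 119 at 1% O2 and 92.6 and 87.6 at <0.1% O2. The severe libraries lay below all others while the 1% O2 libraries overlapped normoxia, and the log2 change at <0.1% O2 was -0.54 ± 0.13 (limma adjusted p = 0.000961). *Srsf2*, at -0.52, was similar in size.

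*Srsf9* (chr5:115326565-115327543), a short SR protein, changed least in the class at <0.1% O2 with median scaling. Its pileup was 95.0 and 116 in normoxia, 135 and 124 at 1% O2 and 97.9 and 112 at <0.1% O2. The severe and normoxic libraries overlapped, and the log2 change was -0.0033 ± 0.14. *Srsf3* and *Srsf4* also stayed within 0.6 of normoxia, at -0.22 and -0.14. After the GC trend was subtracted, *Srsf3*, *Srsf4* and *Srsf9* were at 0.0033, 0.15 and 0.29.

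The hnRNP class held both the largest fall and most of the promoters that did not pass the test. Of its 26 promoters 10 were lower at <0.1% O2, none was higher, and the median log2 change was -0.27. *Ptbp2* (chr3:119782458-119783722), the neuronal paralog of *Ptbp1*, had a pileup of 143 and 118 in normoxia, 85.7 and 72.4 at 1% O2 and 41.9 and 45.4 at <0.1% O2. No libraries of different conditions overlapped, and the log2 change at <0.1% O2 was -1.57 ± 0.16 (limma adjusted p = 8.48e-10), the largest fall of the 44.

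*Ptbp1* (chr10:79853245-79855165) is a repressor of neuronal exons that binds pyrimidine tracts. Its promoter had a pileup of 416 and 470 in normoxia and 459 and 470 at <0.1% O2, a log2 change of 0.07 ± 0.10. The change was -0.095 when scaled by genome coverage and 0.28 after the GC trend was subtracted. The severe libraries lay within the normoxic range, and the peak stood at a mean pileup rank of 98.4 where that of *Ptbp2* stood at 43.7. *Hnrnpl* (chr7:28810224-28811330), which binds CA repeats, had the largest change above 0 of the 44, with 285 and 311 in normoxia, 345 and 355 at 1% O2 and 391 and 434 at <0.1% O2. Its libraries stood higher at each step without overlap, and the log2 change of 0.47 ± 0.10 (limma adjusted p = 0.000129) was short of the size limit.

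The strongest peak near *Hnrnpll*, upstream of its start, was at -0.18, but the further peak that holds its start site fell, with a log2 change of -0.96 ± 0.11. It had a pileup of 249.6 and 300 in normoxia, 188 and 197 at 1% O2 and 143 and 137 at <0.1% O2. With any peak of the window counted, as an alternative chosen after seeing the data, 17 of 44 genes were lower at <0.1% O2 and 6 at 1% O2. More peaks per gene give more occasions for a call. The share of all genes under this rule was not counted, so these numbers have no background.

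In the A/B subfamily, whose proteins bind splicing silencers and AU-rich RNA, 3 of 5 promoters were lower. *Hnrnpa0* (chr13:58128170-58130200) had a pileup of 223 and 217 in normoxia, 154 and 161 at 1% O2 and 104 and 101 at <0.1% O2. It fell at each step without overlap, to a log2 change of -1.10 ± 0.12 (limma adjusted p = 1.26e-09). *Hnrnpa2b1* (chr6:51469316-51471183), of splicing and RNA transport, had 418 and 466, then 264 and 252, then 228 and 222.

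Most of the fall at *Hnrnpa2b1* had occurred at 1% O2, and its log2 change at <0.1% O2 was -0.97 ± 0.10 (limma adjusted p = 5.24e-10), but 0.03 on the log2 fold. It was the strongest of the 16 promoters, at a mean rank of 93.3. *Hnrnpab* (chr11:51605876-51607447) had 231 and 264, then 161 and 145, then 161 and 123. Both hypoxic conditions lay below normoxia and overlapped each other, with a log2 change of -0.81 ± 0.12 at <0.1% O2 (limma adjusted p = 1.15e-06). *Hnrnpa1* and *Hnrnpa3*, both in the top decile of promoter peaks, were at -0.18 and -0.17.

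The poly(C)-binding genes were lower in 2 of 3 cases. *Hnrnpk* (chr13:58401590-58403107), a KH domain protein, had a pileup of 184 and 186 in normoxia, 149.8 and 139 at 1% O2 and 119 and 102 at <0.1% O2. The conditions did not overlap, and the log2 change was -0.75 ± 0.12 (limma adjusted p = 3.95e-06), but 0.23 on the log2 fold. *Pcbp1* was at -0.78 and *Pcbp2*, which missed the size limit, at -0.55. Neither *Hnrnpk* nor *Pcbp1* kept the call after the GC trend was subtracted, and their peaks had a GC content of 72.8% and 67.7%.

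In the D subfamily, *Hnrnpdl* (chr5:100038472-100040401) had a pileup of 272 and 309 in normoxia, 196 and 197 at 1% O2 and 153 and 135 at <0.1% O2. It fell at each step, to a log2 change of -1.01 ± 0.11 (limma adjusted p = 2.1e-09). Its paralog *Hnrnpd*, the AU-rich element binding protein AUF1, had 306 and 372 in normoxia and 285 and 262 at <0.1% O2. Its log2 change of -0.31 ± 0.10 missed the size limit and was 0.03 after the GC trend was subtracted. The difference between the paralogs was not tested.

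*Hnrnpu* (chr1:178336262-178338404) encodes SAF-A, a nuclear scaffold protein that binds RNA. Its pileup was 201 and 244 in normoxia, 186 and 183 at 1% O2 and 118 and 122 at <0.1% O2. The 1% O2 libraries lay just below normoxia and the severe libraries well below both, and the log2 change was -0.88 ± 0.12 (limma adjusted p = 9.11e-08). Its paralogs *Hnrnpul1* and *Hnrnpul2* were at -0.08 and -0.09, in the top decile of promoter peaks.

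*Syncrip* (chr9:88482006-88483274), or hnRNP Q, had a pileup of 323 and 328 in normoxia, 235 and 196 at 1% O2 and 171 and 194 at <0.1% O2. All hypoxic libraries lay below normoxia, and the log2 change at <0.1% O2 was -0.84 ± 0.11 (limma adjusted p = 6.77e-08). Its paralog *Hnrnpr* was at -0.07. *Hnrnpm* (chr17:33684769-33685820), which binds GU-rich RNA, had the smallest change of the class at <0.1% O2, with pileups of 86.5 and 86.5, then 107 and 110, then 90.01 and 88.6.

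*Hnrnpm* thus stood highest at 1% O2 and at <0.1% O2 lay within 0.05 ± 0.14 of normoxia. Of the G-tract binding F/H genes only *Hnrnpf* was lower, at -0.63 ± 0.10 (limma adjusted p = 6.89e-06) but 0.36 on the log2 fold, and its further peak also fell, by 0.90 on the log2 scale. It lost the call after the GC trend was subtracted, without replicate 2 of 21% O2 or of <0.1% O2, and among peaks with a −log10 q of at least 10. *Hnrnph1*, *Hnrnph2* and *Hnrnph3* were at -0.06, -0.40 and -0.23. *Hnrnpc* and *Raly*, paralogs with peaks near the top of the genome's range, were at -0.16 and 0.05.

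None of the 6 promoters of the DBHS, FET and Rbmx group was called at <0.1% O2 with limma, while 4 were below 0 and none above at an unadjusted p under 0.05, which 42.3% and 16.1% of promoter peaks were. *Sfpq* (chr4:127020953-127022456), a paraspeckle protein needed for long introns, had a pileup of 121 and 143 in normoxia, 123 and 115 at 1% O2 and 138 and 152 at <0.1% O2. The severe libraries overlapped normoxia, and the log2 change was 0.14 ± 0.13, or -0.02 when scaled by genome coverage. With 1 library left out the change ranged from 0.021 to 0.26. The other paraspeckle genes *Nono* and *Pspc1* were at -0.40 and 0.19, and the FET genes *Ewsr1* and *Taf15* at -0.25 and -0.35.

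*Rbmx* was at -0.51 ± 0.19, and at -0.65 after the GC trend was subtracted, which passed the test. Its peak had the lowest GC content of the 44, at 47.7%.

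**Figure D2:**
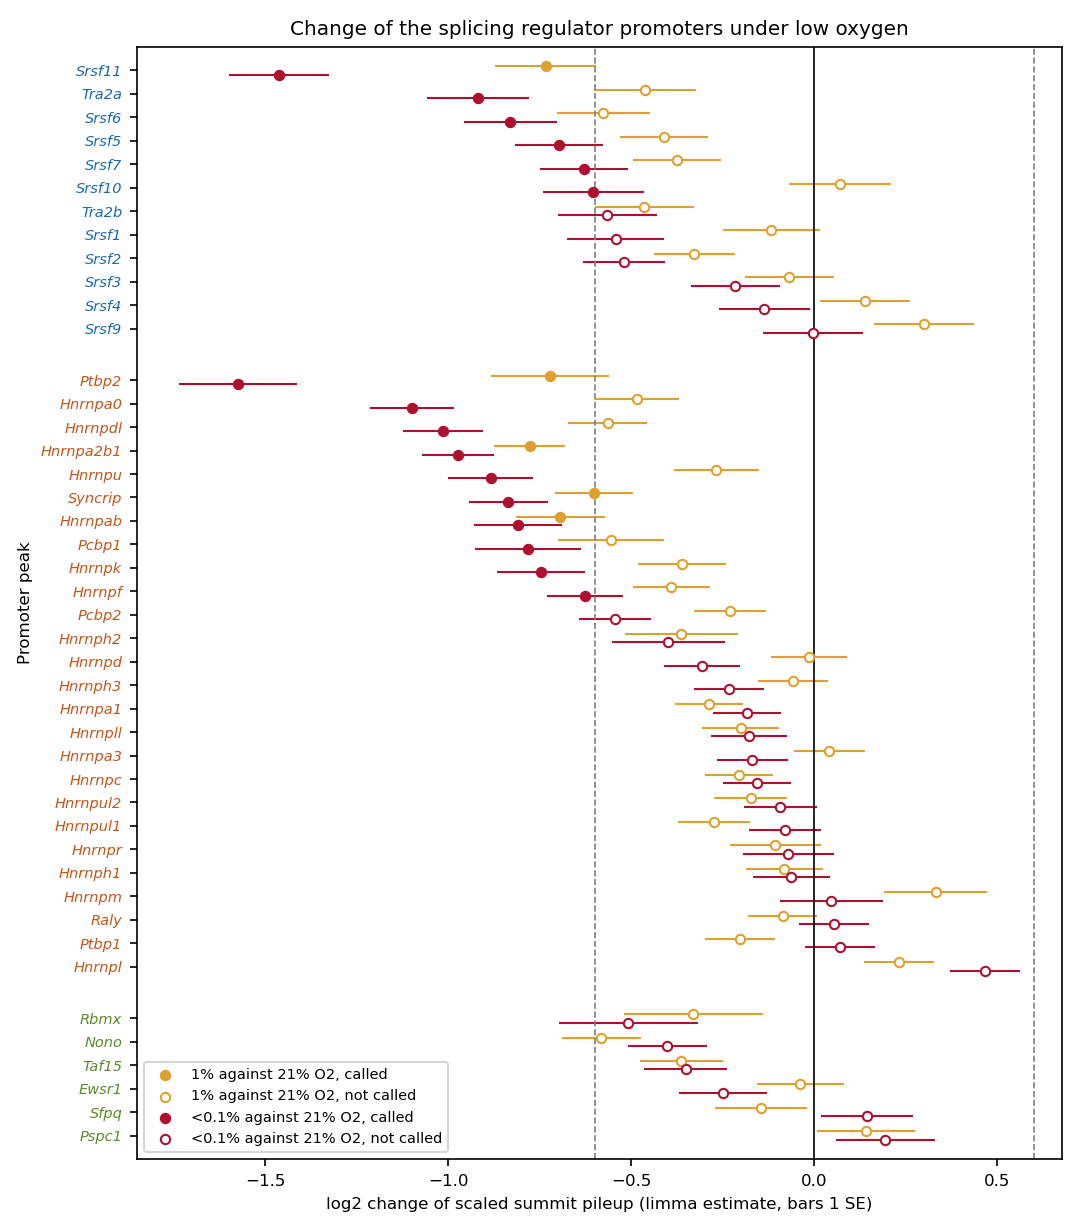
Log2 change of the scaled summit pileup of the 44 promoter peaks at 1% (yellow) and <0.1% O2 (red) against 21% O2, with bars of 1 limma SE and dashed lines at the size limit of 0.6. Filled points were called, which was so for 5 promoters at 1% O2 and 16 at <0.1% O2, all below 0, while none was called on the log2 fold.

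At 1% O2, 5 of the 44 promoters were lower than at 21% O2 and none was higher, where 7.29% of all promoter peaks were lower and 3.92% higher. Without a limit on size, 25 were below 0 and 3 above at an unadjusted limma p under 0.05, against 27.4% and 16.6% of promoter peaks. Scaled by genome coverage these were 5 and 2, against 6.94% and 17.3%. The 5 were *Hnrnpa2b1* at -0.78 ± 0.10 (limma adjusted p = 9.17e-08), *Srsf11* at -0.73 ± 0.14, *Ptbp2* at -0.72 ± 0.16, *Hnrnpab* at -0.69 ± 0.12, though 0.01 on the log2 fold, and *Syncrip* at -0.60 ± 0.11. All 5 were also among the 16, and the 2 comparisons share their normoxic libraries. When pileups were divided by genome coverage only *Hnrnpa2b1* was called, where 2.96% of promoter peaks were. *Syncrip*, *Hnrnpab* and *Ptbp2* each lost the call without 1 of the 21% O2 libraries and *Syncrip* also without replicate 2 of 1% O2. *Syncrip* lost the call as well among peaks with a −log10 q of at least 10 and after the GC trend was subtracted, when *Nono* gained it.

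The median log2 change of the 44 was -0.27 at 1% O2, against -0.07 over all promoter peaks, and -0.10 against 0.10 when scaled by genome coverage. In 30 of 44 both 1% O2 libraries lay below both normoxic libraries, which was so for 40.3% of promoter peaks, and in 3 they lay above, against 26.2%. In 34 promoters the change was below 0 at both levels, against 52.0% of promoter peaks. The median over the SR class was -0.35 and over the hnRNP class -0.25, or -0.18 and -0.08 when scaled by genome coverage.

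Between <0.1% and 1% O2, 5 of 44 promoters were lower at <0.1% and none was higher, where 4.77% of promoter peaks were lower and 1.35% higher. At an unadjusted limma p under 0.05, 19 were below 0 and 3 above, against 28.4% and 7.89% of promoter peaks. The 5 were *Ptbp2* at -0.85 ± 0.16, *Srsf11* at -0.73 ± 0.14, *Srsf10* at -0.67 ± 0.14, *Hnrnpu* at -0.62 ± 0.12 and *Hnrnpa0* at -0.62 ± 0.12. All 12 SR promoters lay below 0 in this comparison, and 16 of the 26 hnRNP promoters did, against 68.0% of promoter peaks. *Hnrnpa0* lost the call without replicate 2 of 1% O2 or replicate 2 of <0.1% O2, *Srsf10* without replicate 2 of <0.1% O2 and *Hnrnpu* without replicate 1 of <0.1% O2. Scaled by genome coverage, 15 of 44 were lower, against 30.1% of promoter peaks, and at an unadjusted p under 0.05 there were 28 below 0 and none above, against 52.8% and 0.563%. None of the 5 kept the call after the GC trend was subtracted, when 0.941% of promoter peaks were lower and 5 of the 44 were below 0 and 7 above at an unadjusted p under 0.05, against 10.3% and 15.1% of promoter peaks.

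The share called lower at <0.1% O2 was smaller among the strongest peaks, with strength taken from the same libraries. Of the 14 promoters with a mean pileup rank of 90 or more 2 were lower, *Hnrnpa2b1* and *Hnrnpf*, against 5.25% of all promoter peaks of that strength. Of the 24 with a rank between 60 and 90, 11 were lower, against 18.9%, and of the 6 below 60, 3 were lower, against 24.1%. Set beside the median of the promoter peaks in the same decile of strength, 33 of the 44 were lower at <0.1% O2 and 35 at 1% O2, and the median difference from the decile was -0.27 and -0.24.

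**Figure D3:**
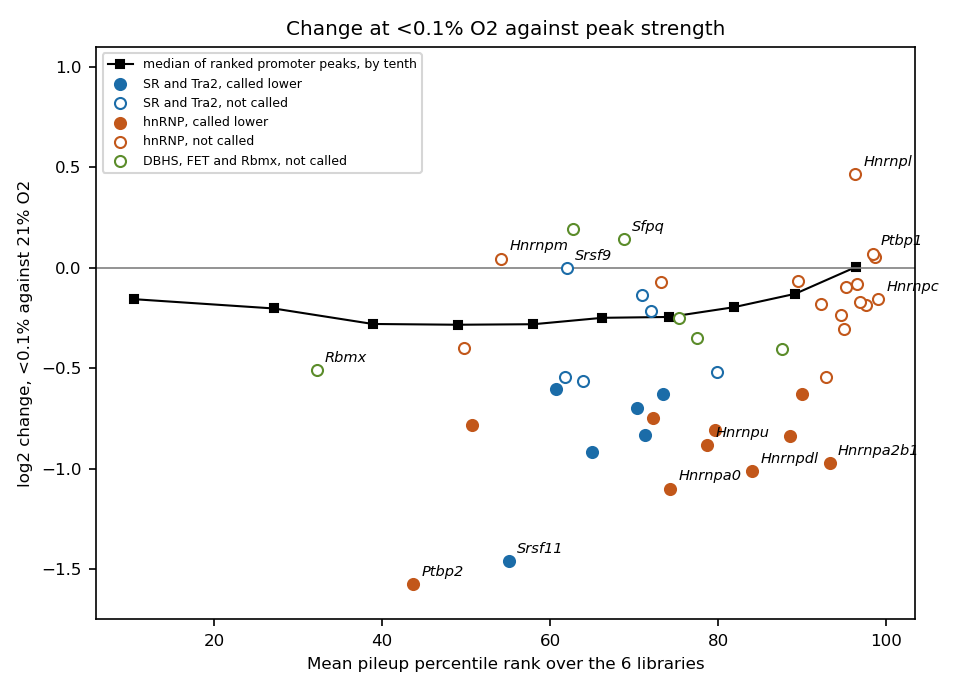
Log2 change at <0.1% against 21% O2 (vertical) against the mean pileup percentile rank over the 6 libraries (horizontal) for the 44 promoter peaks, filled where called lower. Black squares are the medians of all promoter peaks in each decile of strength, at -0.16 in the weakest decile, lowest at -0.28 in the deciles from 3 to 5 and 0.0041 in the strongest, and 33 of the 44 points lie below their decile's median.

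The fall also went with GC content. Of the 18 promoters with at least 65% GC, 11 were lower at <0.1% O2, against 30.6% of such promoter peaks, and of the 26 with less, 5 were lower, against 16.3%. The 5 were *Srsf5*, *Srsf7*, *Srsf11*, *Tra2a* and *Hnrnpa0*. *Srsf6*, *Hnrnpu* and *Srsf9* lay just inside this limit, at 65.1%, 65.1% and 65.2%, and *Srsf4* just outside. Over all promoter peaks, binned by GC content, the median log2 change went from 0.18 in the bin with a median of 43.2% to -0.61 in the bin with a median of 76.3%. Within the SR class 2 of 12 promoters and within the hnRNP class 4 of 26 were lower after the GC trend was subtracted, against 11.9% of all promoter peaks. The part of GC content in these falls was not tested beyond this subtraction.

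**Figure D4:**
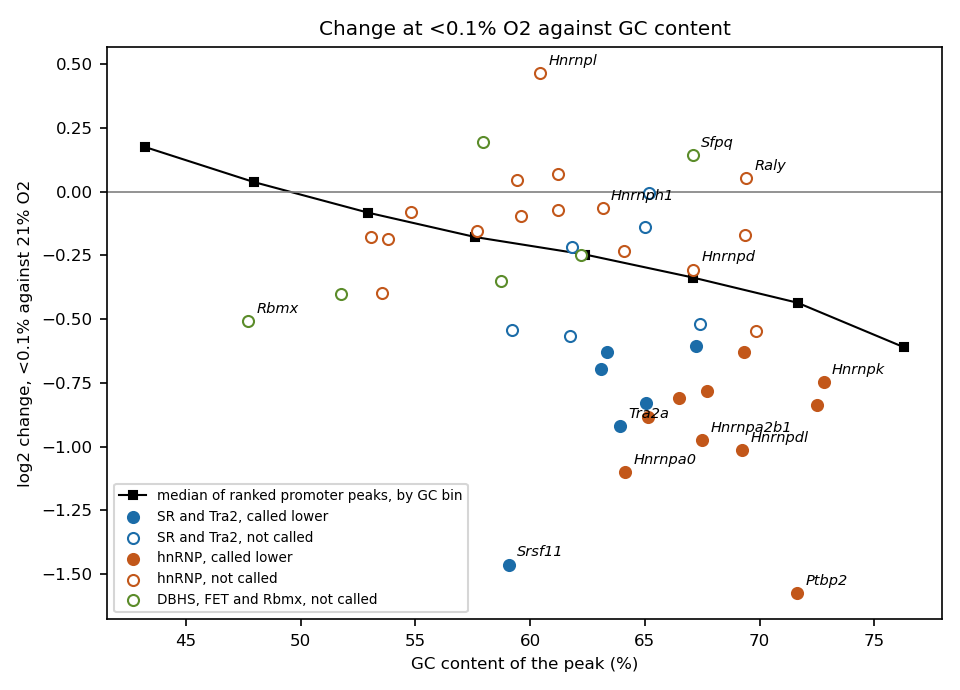
Log2 change at <0.1% against 21% O2 (vertical) against the GC content of the peak in percent (horizontal) for the 44 promoter peaks, filled where called lower. Black squares are the medians of all promoter peaks in bins of GC content, falling from 0.18 to -0.61, and *Srsf11* and *Ptbp2* lie furthest below them.

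The deposited fold gave another picture than the pileup. The fold is the ratio of the summit to a local background, and that background, divided by genome coverage, was lower at <0.1% O2 around 43 of the 44 promoters and 81.2% of all promoter peaks, with a median log2 change of -0.68 against -0.33 over all promoter peaks. No control library is among the 6, so the fold is no independent check of the pileup. In normoxia the background over coverage was 14.5 and 17.0 at *Hnrnpc*, the strongest peak, and 1.63 and 1.97 at *Rbmx*, the weakest. At *Srsf11*, where the pileup fell, it went from 4.72 and 6.18 to 2.11 and 2.25 at <0.1% O2. Ranked by fold within each library, 6 of the 44 promoters were lower at <0.1% O2 and 9 higher, where 26.5% and 12.0% of promoter peaks were. At 1% O2, 5 were lower and 9 higher, where 16.5% and 11.9% were. This rule asked that both libraries lie beyond both others and that the mean rank move by at least 10 points, and it is a description, since 2 libraries against 2 allow no exact permutation p below 0.333.

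All 6 lower promoters by fold at <0.1% O2, *Srsf11*, *Tra2a*, *Hnrnpa0*, *Ptbp2*, *Nono* and *Taf15*, also had a log2 pileup change below 0. *Ptbp2* fell from fold ranks of 63.9 and 50.2 in normoxia to 24.4 and 29.3, and *Srsf11* from 63.7 and 47.8 to 31.9 and 23.5, so both rankings placed their severe libraries below normoxia. The 9 higher ones were *Hnrnpa1*, *Hnrnpa3*, *Hnrnpd*, *Hnrnpf*, *Hnrnpk*, *Hnrnpll*, *Ptbp1*, *Hnrnpul2* and *Sfpq*. *Sfpq* had fold ranks of 41.6 and 52.8 in normoxia, 66.4 and 68.5 at 1% O2 and 82.8 and 89.6 at <0.1% O2.

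*Sfpq* climbed at each step without overlap, by 39.0 points at <0.1% O2, while its pileup rank moved by 6.22 points. Its background over coverage was 4.35 and 4.95 in normoxia and 3.05 and 2.80 at <0.1% O2. *Hnrnpk* moved in opposite directions in the 2 rankings, up by 16.8 points in fold and down by 19.4 in pileup. Its fold ranks were 65.7 and 51.6 in normoxia, 64.0 and 74.5 at 1% O2 and 81.5 and 69.3 at <0.1% O2, and its background over coverage was 5.29 and 6.66 in normoxia and 2.63 and 2.29 at <0.1% O2.

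*Hnrnpf*, called lower by pileup, rose by 24.5 points in fold. Of the 16 promoters lower by pileup, 6 had a fold rank change above 0. Tested with limma on the log2 fold in place of the pileup, none of the 44 was called in any comparison, and at an unadjusted p under 0.05 there were 3 below 0 and 5 above at <0.1% O2, against 21.2% and 8.84% of promoter peaks. In that test 2.91% of promoter peaks were lower at <0.1% O2 against 19.5% by pileup. Of the 16 promoters lower by pileup, *Srsf6*, *Srsf7*, *Hnrnpa2b1*, *Hnrnpf* and *Hnrnpk* turned from below to above 0.

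**Figure D5:**
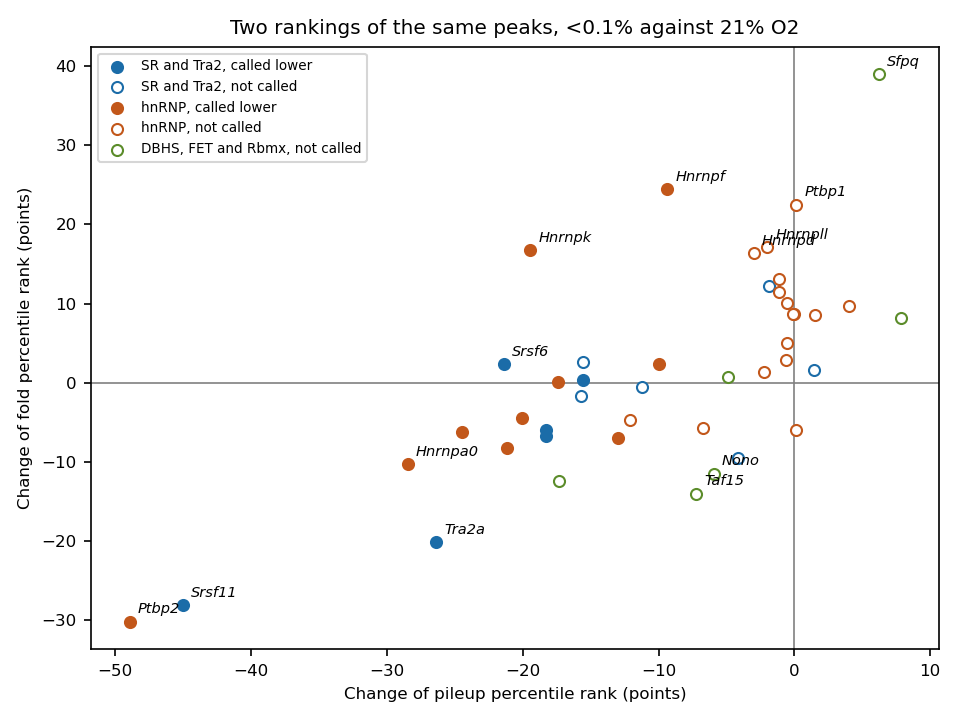
Change of the fold percentile rank (vertical, points) against the change of the pileup percentile rank (horizontal, points) at <0.1% against 21% O2 for the 44 promoter peaks, filled where the pileup was called lower by limma. *Sfpq* stands at the top with a fold rank change of 39.0, *Hnrnpk* and *Hnrnpf* lie up and to the left, and *Ptbp2* and *Srsf11* lie lowest in both.

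The position of the summit was kept within 50 bp over the 6 libraries in 15 of the 44 promoters, against 25.6% of promoter peaks. At *Hnrnpc* the 6 summits lay 252 to 253 bp upstream of the start. Both <0.1% O2 summits lay upstream of both normoxic ones in 14 of 44, against 26.0%, and downstream in 3, against 14.0%. At *Ptbp2* the normoxic summits were 27 and 34 bp downstream of the start and the severe ones 205 and 59 bp upstream, and at *Srsf11* they were 31 and 31 bp downstream and then 142 and 29 bp upstream. At *Nono* they moved from 29 and 38 bp downstream to 98 and 107 bp upstream. These shifts are descriptions of single summits.

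The other splicing regulators listed, 40 genes for SR protein kinases, splice site recognition and further RNA-binding regulators, were used only for comparison. A peak in all 6 libraries was found for 39, and *Esrp1*, an epithelial splicing factor, had none. At <0.1% O2, 8 of 39 were lower (20.5%) and none was higher, where 19.5% of all promoter peaks were lower, and 18 were below 0 and 3 above at an unadjusted limma p under 0.05, against 42.3% and 16.1%. After the GC trend was subtracted none of the 39 was lower at <0.1% O2, against 11.9% of promoter peaks. At 1% O2 none was called with limma, where 7.29% of promoter peaks were lower, with 9 below 0 and 2 above at an unadjusted p under 0.05, against 27.4% and 16.6%. The largest falls were at *Matr3* (-0.83) and *Son* (-0.72), and the smallest called were at *Elavl1* (-0.67) and *Rbm17* (-0.61). The median log2 change of the 39 was -0.23 at <0.1% O2, against -0.40 in the 44 SR, hnRNP and related promoters, and the difference was not tested.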

How the data were processed

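ATACseq peak lists of 6 libraries were analysed, 2 each at 21%, 1% and <0.1% O2. The authors trimmed reads with Trimmomatic, aligned them to mm10 with Bowtie2 2.2.5, removed duplicates with Picard and ran MACS2 2.1.1.2 on each library, per the submitters' processing notes. The deposited lists give, per peak, the ratio (fold) of the summit to the local background, its p-value and q-value as −log10, and where the summit lies. No read counts were used. The summit pileup, taken as a whole number of fragments, and the local background were solved from the deposited fold and −log10 p. The solution matched the deposited −log10 p within a small tolerance for 100% of peaks, and the smallest background gave the genome coverage.

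Stretches over 200 bp shared by both libraries of a condition were merged over conditions, and the 28432 peaks present in all 6 libraries were tested with limma 3.58.1 (R 4.3.3; trend, all 6 libraries, median-centred log2 pileup) with Benjamini-Hochberg adjustment over all of them. A peak was assigned to a gene within 2000 bp of its start in GENCODE M21, and the peak with the highest mean pileup rank stands for the gene. GC trends were taken with lowess (span 0.3). Promoter windows came from RefSeq (GRCm38.p6). Pileups cover counting within 1 library, and the number of libraries limits the precision. Python 3.11.15, pandas 2.3.3, scipy 1.17.1 and statsmodels 0.14.6 were used.

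The members and lists were chosen with earlier results of these data known. Library values are given for up to 5 called genes per class, comparison and direction, the smallest change per class, genes lacking a peak in a library, genes whose fold and pileup ranks moved apart by at least 10 points each, and *Sfpq*, *Hnrnpk*, *Hnrnpu*, *Srsf1* and *Srsf7*; other genes given with library values (*Ptbp1*, *Hnrnpl*, *Hnrnpd*, *Hnrnpll* and any called gene past the first 5) were chosen after their values were seen. Alternatives covered scaling, GC content, the value tested, a replicate block, thresholds, overlap and each library left out.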

Additional observations from a re-analysis of the deposited data

Results flagged for a closer look

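The step from 1% to <0.1% O2 was tested directly with limma, and 5 of the 44 promoter peaks differed between the hypoxic conditions, all lower at <0.1% O2. Of all promoter peaks 4.77% were lower and 1.35% higher. The log2 change was -0.8526 at *Ptbp2*, -0.7286 at *Srsf11*, -0.6734 at *Srsf10*, -0.617 at *Hnrnpu* and -0.6151 at *Hnrnpa0*. At *Srsf10*, *Hnrnpu* and *Hnrnpa0* the change from 21% to 1% O2 had not been called, and *Hnrnpa0*, at -0.48, had missed the size limit alone. After the trend with GC content was subtracted none of the 44 was called, where 0.941% of promoter peaks were lower, with 5 below 0 and 7 above at an unadjusted limma p under 0.05, against 10.3% and 15.1%. Scaled by genome coverage, 15 of the 44 were lower, against 30.1% of promoter peaks. The cause of these differences was not tested.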

How the results depend on the processing

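The numbers of lower promoters at 1% against 21%, <0.1% against 21% and <0.1% against 1% O2 (5, 16 and 5) were 1, 21 and 15 with pileups over genome coverage (2.96%, 30.2% and 30.1% of all promoter peaks), 5, 7 and 0 with the GC trend subtracted (1 higher at <0.1% O2), and 0, 0 and 0 on the log2 fold, where unadjusted limma p-values under 0.05 were found below and above 0 in 1 and 6, 3 and 5, and 3 and 3 promoters. Of all promoter peaks those unadjusted shares were 10.9% and 7.07%, 21.2% and 8.84%, and 13.2% and 5.96%. With the GC trend subtracted 7.34%, 11.9% and 0.941% of all promoter peaks were lower. With the adjusted p alone the numbers of lower promoters were 20, 26 and 11, with 0, 1 and 1 higher. The shares of all promoter peaks were then 21.99%, 38.5% and 18.5% lower and 12.9%, 13.8% and 4.97% higher. Peaks with a −log10 q of at least 10 gave 4, 13 and 5, merging by any overlap 5, 16 and 5, and leaving out 1 library 5 to 6, 15 to 17 and 3 to 5 (3 without replicate 2 of <0.1% O2). The shares of promoter peaks under these rules were not counted. Replicate numbers did not pair the samples (correlations of deviations -0.05, -0.01 and 0.0079), and the replicate block gave 5, 16 and 5, or 5, 7 and 0 with the GC trend subtracted (1 higher at <0.1% O2). The median change at 1% and <0.1% O2 was -0.10 and -0.57 over coverage, -0.23 at <0.1% O2 with the GC trend subtracted, and -0.0064 and 0.011 on the log2 fold.

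By fold rank, 5 lower and 9 higher at 1% O2 and 6 and 9 at <0.1% O2 became 9 and 2, and 19 and 0, with pileups ranked, against 16.5% and 11.8%, and 32.0% and 10.2%, of promoter peaks. A limit of 15 points gave 3 lower and 5 higher at 1% and 3 lower at <0.1% O2. The GC trend gave 15 higher at <0.1% O2, and ranks in the whole list 1 and 2 lower. Without 1 library, 4 to 9 were lower at 1% O2 (8 without 21% replicate 2, 9 and 8 without 1% replicates 1 and 2) and 4 to 11 at <0.1% O2 (11 without 21% replicate 2). Apart from the pileup ranks, the shares of promoter peaks under these alternatives were not counted, so these numbers have no background.

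Single-gene values were followed over the alternatives only for the called promoters and for *Sfpq* and *Srsf1*. Over coverage their signs turned at *Sfpq* (0.021 at 1%, -0.022 at <0.1% O2) and *Srsf1* (0.049 at 1% O2). Outside these genes, the change at <0.1% O2 also turned below 0 over coverage at *Ptbp1* (-0.095), *Raly* (-0.11) and *Hnrnpm* (-0.12). On the log2 fold the signs of the followed genes turned at <0.1% O2 for *Srsf6* (0.038), *Srsf7* (0.0033), *Hnrnpa2b1* (0.035), *Hnrnpf* (0.36) and *Hnrnpk* (0.23). At 1% O2 they turned for *Srsf7* (0.12), *Hnrnpab* (0.015), *Hnrnpf* (0.27), *Hnrnpk* (0.14), *Hnrnpu* (0.17), *Sfpq* (0.28) and *Srsf1* (0.14). Turns among the other promoters are not listed. Without 21% replicate 2 they turned at 1% O2 for *Srsf10* (-0.026; range -0.026 to 0.17 without 1 library) and *Srsf1* (0.0036; range -0.24 to 0.0036). Of 396 single-gene values, 319 kept direction and call, 54 lost the call, 6 gained it and 17 turned. The causes were not tested.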
